A study of Bos taurus with 40 samples.

Results

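PRKCE encodes protein kinase C epsilon, and its transcript was followed here in strips of bovine tracheal smooth muscle. The gene was read by 2 of the 1040 spots on a custom oligonucleotide array, spots 727 and 728, which are the duplicate spots that the platform's probe-to-gene table names PRKCE. It is 1 of 14 genes named on the array, and its gene number in that table, 507041, belongs to protein-coding PRKCE in RefSeq's cattle annotation. The gene was chosen because its intensity differed between stretched and unstretched strips in these same arrays. All values of the stretch comparison, and of strips given both treatments against untreated ones, are therefore a description without a test. The latter comparison, also used in the choice, adds the carbachol change to the stretch change. The carbachol tests below are thus not fully independent of how the gene was chosen. Nor is the interaction of carbachol and stretch, a difference of stretch changes. The sources used here do not give the probe sequence or its place in the transcript.

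Protein kinase C epsilon is a serine/threonine kinase of the protein kinase C family whose activation depends on diacylglycerol but not on calcium. Muscarinic receptors coupled to Gq activate phospholipase C, which makes diacylglycerol from a membrane phospholipid. In smooth muscle, protein kinase C isoforms act on contraction in part through CPI-17, an inhibitor of myosin phosphatase, and through Raf and MAP kinase signalling. An array reads transcript abundance, so neither the amount of the kinase nor its activity was measured.

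Strips came from 5 animals of Bos taurus whose tracheae were obtained at a slaughterhouse, and strips of each animal went through all 4 treatments. Untreated strips stayed in physiological saline without length oscillation, and the saline stretched strips were oscillated sinusoidally by 10% of muscle length at 1 Hz. The carbachol unstretched strips were kept in 1 µM carbachol, which activates muscarinic receptors, and the carbachol stretched strips received the drug and the oscillation. Before oscillation, strips were loaded to a tension of 12 g and equilibrated for 1 h. The sources used here do not state age, sex or breed of the animals or how long the treatments lasted. The muscle layer was excised together with adventitia and mucosa, and later trimming is not described there. None of the 27 marker genes listed for smooth muscle and other cell types (0 of 27) carries a name on the array, so the labelled tissue could not be checked against its markers, and cell composition was not analysed. In such tissue RNA, more cells that express a gene and more of its RNA per cell cannot be told apart.

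The 20 RNA samples were each labelled in both dyes, Cy3 and Cy5, and every one of 20 arrays received 2 of these 40 labelled samples. Arrays 1 to 12 carried animals 1 to 3 and arrays 13 to 20 carried animals 4 and 5, so that animal and array set cannot be told apart. Arrays held values for 334 to 575 spots, and 57.4% of all cells were blank. Both PRKCE spots had a value on 20 of 20 arrays in both dyes. A level below is a normalised log2 intensity, averaged over duplicate spots and over both labellings of an RNA. A change is a difference of such levels, so that a change of 1 is a doubling. Precision is limited by the number of animals, 5.

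The unprocessed readings of PRKCE lay between 850 and 8041 over both spots and all 40 channels. In untreated strips the mean of both spots had a median of 1462.5 in Cy3 and 1138 in Cy5. Saline stretched strips had medians of 2463.5 in Cy3 and 1982 in Cy5. In carbachol without stretch the medians were 1607 in Cy3 and 1405.5 in Cy5. In carbachol with stretch they were 3118 in Cy3 and 2123.5 in Cy5. Before any normalisation, both dyes thus had higher medians in the stretched groups, while single channels overlapped widely. The highest untreated channel read 6014.5, and the lowest carbachol stretched channel 1120.5.

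After normalisation, the PRKCE level of untreated strips was 10.57, 10.16, 10.32, 10.93 and 11.04 in animals 1 to 5. With stretch in saline it was 11.74, 10.74, 10.89, 11.29 and 11.30 in the same order of animals. Both groups overlapped, since untreated strips of animals 4 and 5 lay above stretched strips of animals 2 and 3, yet within each animal the stretched strip was higher. With carbachol alone the level was 11.16, 10.15, 10.73, 10.83 and 10.84. With carbachol and stretch it was 11.89, 10.75, 11.28, 11.24 and 11.89. These groups overlapped as well, and here too the stretched strip was the higher one in every animal.

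**Figure D1:**
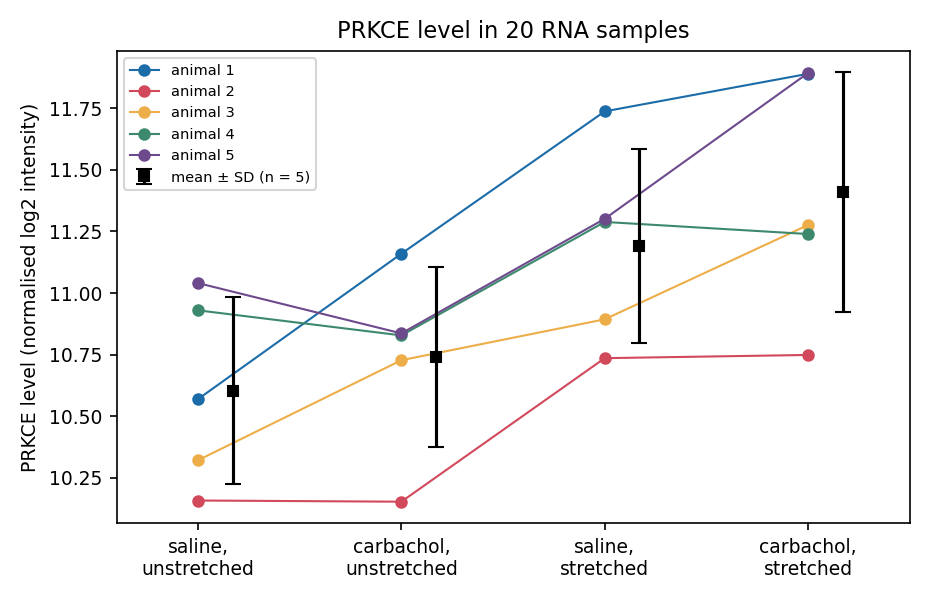
PRKCE level (normalised log2 intensity, vertical axis) in the 4 treatment groups (horizontal axis), with 1 line per animal and the group mean ± SD (n = 5) as black squares. In all 5 animals the stretched strips lie above the unstretched ones, while animal 2 is lowest in each group and the groups overlap.

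By mean level, the groups ordered as untreated strips at 10.60 ± 0.379 (SD, n = 5), carbachol unstretched at 10.74 ± 0.366, saline stretched at 11.19 ± 0.392 and carbachol stretched at 11.41 ± 0.487. Neighbours in this order differed by 0.14, 0.45 and 0.22, and all neighbouring groups overlapped. The second step, from carbachol alone to stretch alone, went up in 5 of 5 animals. The first step, from untreated to carbachol alone, went up in 2 of 5, and the last one in 4 of 5. In 5 of 5 animals both stretched strips stood above both unstretched strips, with a gap of 0.17 to 0.58 between the lower stretched and the higher unstretched strip. Carbachol with stretch gave the highest level in 4 of 5 animals, the exception being animal 4. The lowest level was that of the untreated strip in 2 animals and of the carbachol unstretched strip in 3.

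Animals differed in PRKCE about as much as treatments did. Averaged over the 4 treatments, the level was 11.34, 10.45, 10.80, 11.07 and 11.27 in animals 1 to 5. Of the total sum of squares over 20 RNA samples, 44.2% lay between animals and 40.9% between stretched and unstretched strips. Carbachol held 3.28%, the interaction 0.171% and the residual 11.4%. Over the 118 features measured in all RNA samples, the median share of stretch was 1.54% and that of the residual 34.4%. The stretch share of PRKCE follows from how the gene was chosen and is given only to describe its scale.

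Averaged over both drug states, the stretch change of PRKCE was 0.95, 0.59, 0.56, 0.38 and 0.66 in animals 1 to 5, with an SD of 0.206 around the mean of 0.63. In saline the changes were 1.17, 0.58, 0.57, 0.36 and 0.26, and in carbachol 0.73, 0.60, 0.55, 0.41 and 1.06. In these means of both labellings, animals 2, 3 and 4 changed by nearly the same amount in both drug states. For animals 2 and 3 this did not hold within either labelling, as given below. Animal 1 changed more in saline, and animal 5 more in carbachol. Of the 190 features fitted in limma, 3.16% passed for stretch at an adjusted p of 0.05, 2.11% for stretch in saline and 1.05% for stretch in carbachol, a background from which nothing is read for a gene chosen on it.

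Strips given both carbachol and stretch had 1.32, 0.59, 0.95, 0.31 and 0.85 more PRKCE than untreated strips on the log2 scale, a mean of 0.81 ± 0.381 (SD, n = 5). Animal 4 had the smallest difference and animal 1 the largest. In this comparison 3.68% of the 190 features passed, and untreated strips also enter the comparison of stretch in saline. By labelling, the mean was 1.15 in Cy3 and 0.46 in Cy5, where animal 4 had -0.34. The fitted change was 0.59 without array 19 and 1.02 without array 18. These arrays carried the same RNA samples of animal 5 with dyes exchanged, so leaving out either left both samples with 1 labelling.

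The stretch change was next compared between the array sets. This difference comes from the same stretch changes on which the gene was chosen. Changes alike in all animals could favour that choice, so nothing is concluded from a small difference. Animals 1 to 3 averaged 0.70, and animals 4 and 5 averaged 0.52. The difference of -0.18 ± 0.201 (SE) had a 95% interval of -0.61 to 0.25 and did not pass (limma, adjusted p = 1.00 over 118 features). In that limma test 0% of the features passed, and 2 had an unadjusted p under 0.05. Without array 18 the difference was 0.097, and without array 19 it was -0.45.

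The question of whether muscarinic stimulation alters PRKCE was addressed by comparing carbachol with saline, averaged over stretch. Per animal the carbachol change was 0.37, 0.0041, 0.39, -0.075 and 0.19. It was thus near 0 in animals 2 and 4 and higher with carbachol in the other three. The fitted change was 0.18 ± 0.0993 (SE), a fold of 1.13, with a 95% interval of -0.032 to 0.39, and did not pass (limma, adjusted p = 0.983). Over the 190 features 0% passed in limma, with 11 at an unadjusted p under 0.05. Animals 1 to 3 averaged 0.26, and animals 4 and 5 averaged 0.059. Without array 19 the value was 0.068, and without array 18, its counterpart with dyes exchanged, it was 0.29.

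Without stretch, the carbachol change of PRKCE was 0.59, -0.0048, 0.41, -0.10 and -0.20 in animals 1 to 5. Animals 1 and 3 were higher with carbachol, animal 2 was near 0, and animals 4 and 5 were lower. The value of animal 2 averaged 0.22 in Cy3 and -0.23 in Cy5. The fitted value of 0.14 ± 0.140 (SE) had a 95% interval of -0.16 to 0.43 and did not pass (limma, adjusted p = 0.945). Here 0% of the 190 features passed in limma, with 7 at an unadjusted p under 0.05. The means were 0.33 in animals 1 to 3 and -0.15 in animals 4 and 5. Single units weighed on the fitted value, which was 0.024 without animal 1, 0.016 without array 15 and 0.26 without array 14. With array effects removed before averaging, the change was 0.24 with an adjusted p of 0.0159 in limma. That setting estimates terms for single arrays whose degrees of freedom the test does not count. For carbachol averaged over stretch it called 58 of 190 features, and PRKCE there had an adjusted p of 0.0547 in limma. A count for unstretched strips was not taken under that setting.

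In stretched strips, the carbachol change was 0.15, 0.013, 0.38, -0.049 and 0.59. Animals 1, 3 and 5 were higher with carbachol, and animals 2 and 4 lay within 0.05 of 0. The latter values averaged labellings of opposite sign, -0.11 in Cy3 and 0.14 in Cy5 for animal 2, and 0.49 and -0.59 for animal 4. The fitted change of 0.22 ± 0.140 (SE) did not pass (limma, adjusted p = 0.826), and its 95% interval was -0.078 to 0.51. Again 0% of the 190 features passed in limma, with 15 at an unadjusted p under 0.05. The means were 0.18 in animals 1 to 3 and 0.27 in animals 4 and 5. The fitted value was 0.12 without animal 5, 0.089 without array 19 and 0.35 without array 18.

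Whether carbachol altered the stretch change of PRKCE was examined by the interaction, the stretch change in carbachol minus that in saline. It is a difference of stretch changes on which the gene was chosen. Changes alike in both drug states could favour that choice, so nothing is concluded from a small interaction. The interaction was -0.44, 0.018, -0.023, 0.053 and 0.80 in animals 1 to 5. Averaged over both labellings it was thus near 0 in animals 2, 3 and 4, and animals 1 and 5 lay on opposite sides. The fitted interaction of 0.081 ± 0.199 (SE) had a 95% interval of -0.34 to 0.50 and did not pass (limma, adjusted p = 0.962). Of the 190 features 0% passed in limma, with 9 at an unadjusted p under 0.05. Its sign turned when single units were left out. It was -0.098 without animal 5, and -0.014, -0.016, -0.0094 and -0.049 without array 6, 9, 13 or 14. The means were -0.15 in animals 1 to 3 and 0.42 in animals 4 and 5. In animals 4 and 5, untreated strips shared arrays with carbachol stretched ones, and saline stretched strips with carbachol unstretched ones. Their interaction therefore compares different arrays, and an array effect would stay in the mean of both labellings. Array effect and interaction cannot be told apart there. With array effects removed, the interaction over all animals was -0.23, in a fit whose array terms the test does not count.

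**Figure D2:**
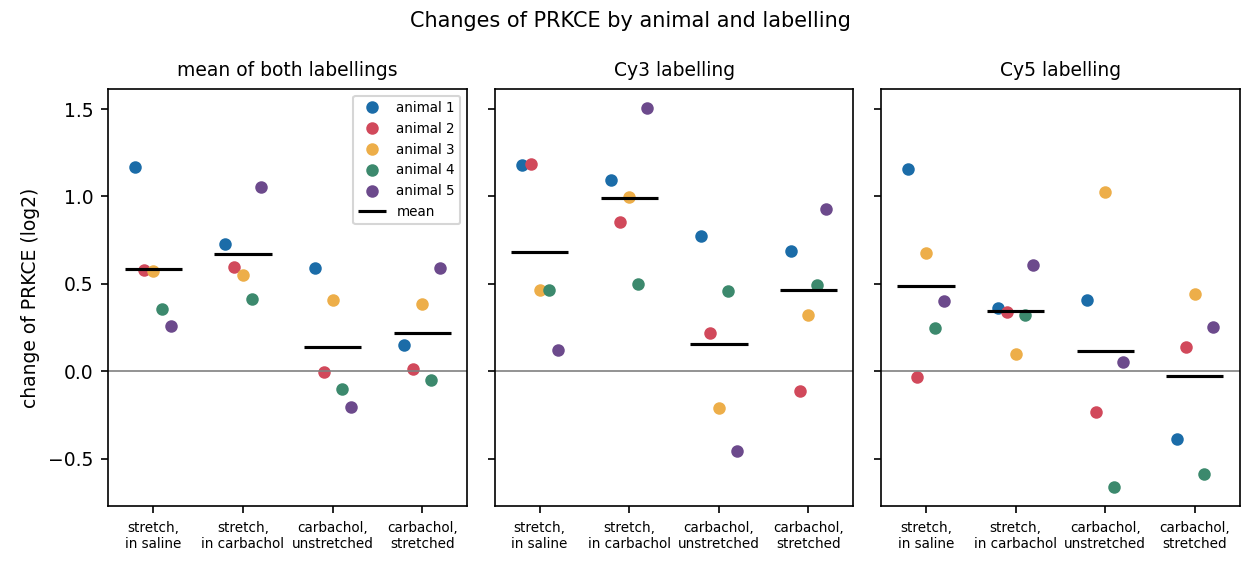
Change of PRKCE on the log2 scale (vertical axis) for stretch and carbachol (horizontal axis), with 1 point per animal and the mean over 5 animals as a bar, from the mean of both labellings (left), Cy3 alone (middle) and Cy5 alone (right). Stretch changes lie above 0 except for animal 2 in saline in Cy5 (-0.034), while carbachol changes lie on both sides of 0.

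Because each RNA was labelled in both dyes and hybridised to different arrays, both labellings give technical readings of the same change, which are not independent. In animals 4 and 5 both labellings used the same arrays with treatments exchanged. An array effect would there enter the stretch and carbachol changes of the labellings with opposite signs, and their interaction with the same sign. In Cy3 the stretch change, averaged over drug states, was 1.14, 1.02, 0.73, 0.48 and 0.81 in animals 1 to 5. In Cy5 it was 0.76, 0.15, 0.39, 0.29 and 0.50. The Cy3 value was the larger one in each animal, with a mean of 0.84 against 0.42, and the order of animals differed. Taken by drug state and dye, the stretched strip was higher in 19 of 20 comparisons. These share animals, RNA samples and arrays and are not replicates, and their direction follows from how the gene was chosen. In carbachol the mean was 0.99 in Cy3 and 0.35 in Cy5, and in saline 0.68 and 0.49.

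The carbachol change of PRKCE was less alike between labellings. In Cy3 it was 0.73, 0.054, 0.055, 0.48 and 0.23 in animals 1 to 5, positive in 5 of 5. In Cy5 it was 0.011, -0.046, 0.73, -0.63 and 0.15, positive in 3 of 5. Animal 4 changed sign between labellings, and animals 1 and 3 exchanged places. The interaction had a mean of 0.31 in Cy3 and -0.14 in Cy5. In animals 2 and 3 it was -0.33 and 0.53 in Cy3, and 0.37 and -0.58 in Cy5. Their averaged values near 0 thus came from labellings of opposite sign. Animal 4 had 0.032 in Cy3 and 0.073 in Cy5.

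The labellings of an RNA differed by far more than its duplicate spots. Spots 727 and 728 differed by a median of 0.11 on the log2 scale over 40 channels, and by at most 0.57. They correlated at 0.979 over these channels, which share 20 arrays. The difference of Cy5 minus Cy3 for the same RNA had a mean of -0.19 and an SD of 0.660 over 20 RNA samples, ranging from -1.29 to 1.21. Over the 118 complete features the median of that SD was 0.537, and PRKCE ranked 30 from the top.

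Arrays that carried a stretched and an unstretched strip allow PRKCE to be read as a ratio within 1 spot, in which both strips share the hybridisation but differ in dye. There were 18 such arrays, 9 with the stretched strip in Cy3 and 9 with it in Cy5. On 13 of them the strips also differed in drug, and on 3 they came from different animals, so that most of these ratios do not read stretch alone. The stretched channel was the higher one on 14 of 18 arrays after normalisation and on 15 of 18 before it. The mean log2 ratio was 0.53 ± 0.583 (SD over 18 arrays, which share RNA samples and are not replicates). With the stretched strip in Cy3 the mean was 0.65, and with it in Cy5 0.41. Both duplicate spots gave the same sign on 16 of 18 arrays.

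On arrays 1 to 12 the stretched strip was higher on 10 of 10 arrays, at 0.072 to 1.24. Of these, 3 arrays paired strips of the same animal and drug state, which is the most direct reading of stretch. Array 2 gave 0.28 for animal 2 in saline, array 5 gave 0.22 for animal 3 in saline, and array 8 gave 0.20 for animal 2 in carbachol. These ratios were smaller than the changes of 0.58, 0.57 and 0.60 from the averaged levels of the same RNA samples. All 3 carried the stretched strip in Cy5, and none was repeated with dyes exchanged.

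On arrays 13 to 20 the stretched strip was higher on 4 of 8 arrays. These arrays are 4 dye swaps, in which the same RNA pair was hybridised again with dyes exchanged, and each swap gave 1 value above and 1 below 0. In animal 4, saline stretched over carbachol unstretched was -0.083 with the stretched strip in Cy3 and 1.00 with it in Cy5. Carbachol stretched over untreated was -0.25 and 0.87 in the same order. In animal 5 the order turned round: the ratios were 0.97 in Cy3 and -0.038 in Cy5 for the first pair, and 1.95 and -0.24 for the second.

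Cy5 was above Cy3 on 4 of 4 arrays of animal 4 and below it on 4 of 4 arrays of animal 5, whichever strip it carried. The means over a swap were 0.46 and 0.31 in animal 4 and 0.46 and 0.85 in animal 5. A dye offset drops out of such a mean only if it is equal on both arrays, which was not tested. The swap of animal 1, on arrays 1 and 4, gave 0.74 and 0.41, both above 0, with a mean of 0.58. All 5 swaps paired strips that differed in drug as well as in stretch.

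**Figure D3:**
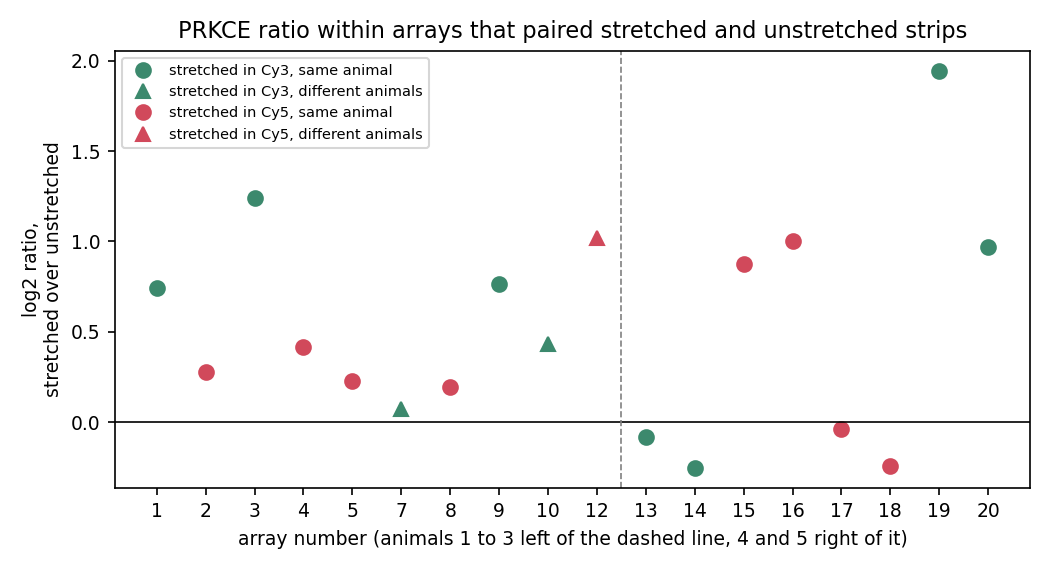
Log2 ratio of PRKCE in the stretched over the unstretched strip (vertical axis) on each of the 18 arrays that paired them (horizontal axis), coloured by the dye of the stretched strip, with triangles where the strips came from different animals. All 10 arrays left of the dashed line (animals 1 to 3) lie above 0, and of the 8 arrays on its right (animals 4 and 5) 4 lie below 0, each of them with its dye swap above 0.

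The offset of PRKCE in these swaps was large among the 118 features measured in all RNA samples. Its mean ratio of Cy5 to Cy3 over a swap was 0.54 and 0.56 in animal 4, ranks 9 and 5 by size, and the median size over the features was 0.13 and 0.16. In animal 5 it was -0.50 and -1.09, ranks 10 and 1, against medians of 0.20 and 0.13. On arrays 1 and 4 it was -0.16, rank 31. Including PRKCE, 4 of 118 features had Cy5 above Cy3 on all arrays of animal 4 and below it on all arrays of animal 5, and 2 had the reverse. The part of the dye in the single values was measured only in these swaps.

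Other named genes of the pathway were few. Of the 51 further gene symbols listed around protein kinase C, its upstream receptors and its targets, 5 were named on the array and 1 could be tested. This was BRAF, a Raf kinase upstream of MEK and ERK, whose carbachol change of 0.14 ± 0.149 (SE) did not pass (limma, adjusted p = 0.983). Its stretch change of -0.032 ± 0.149 (SE) did not pass either (limma, adjusted p = 0.988). PRKAR1A, a regulatory subunit of protein kinase A, was read on 17 arrays by its first spot and on 14 by its second, too few for the test. MAP3K5, PAK3 and CAV2 had values on at most 2 arrays.

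Likeness to PRKCE was measured as the correlation of log2 levels over the 20 RNA samples, after each animal's mean had been subtracted. RNA samples share animals and array sets, so these values are a description. Over the 117 other complete features the median r was 0.0015, 13 were above 0.5 and 5 below -0.5. The 5 most alike were unnamed: spots 639 and 640 at 0.72, 35 and 36 at 0.68, 67 and 68 at 0.68, 93 and 94 at 0.66, and 925 and 926 at 0.66. Least alike were spots 407 and 408 at -0.67 and spots 479 and 480 at -0.59. Of the named genes, the integrin subunit gene ITGA9 reached 0.54 and ranked 11, and ITGA11, RPL28 and BRAF had 0.018, 0.050 and -0.10.

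Likeness was also computed with treatment means removed along with animal means. Over the 117 features the quartiles of this r were -0.23 and 0.19, with a range of -0.65 to 0.57. Spots 35 and 36, 67 and 68, and 93 and 94 then had r of -0.32, -0.27 and -0.063. Their stretch changes were 2.00, 2.53 and 0.42. Spots 639 and 640 and spots 925 and 926 had a lower r than before, at 0.47 and 0.35, and ITGA9 had 0.53. Without subtracting animal means, the r of ITGA9 was 0.073. The ranking depended on the measure: of the 5, 2 stayed among the top 5 without subtracting animal means, 3 in animals 1 to 3 alone, 2 in animals 4 and 5 alone, and 4 by Spearman correlation. Without centring of arrays, 3 stayed and RPL28 had an r of 0.59, while spots 407 and 408 went to 0.042.

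**Figure D4:**
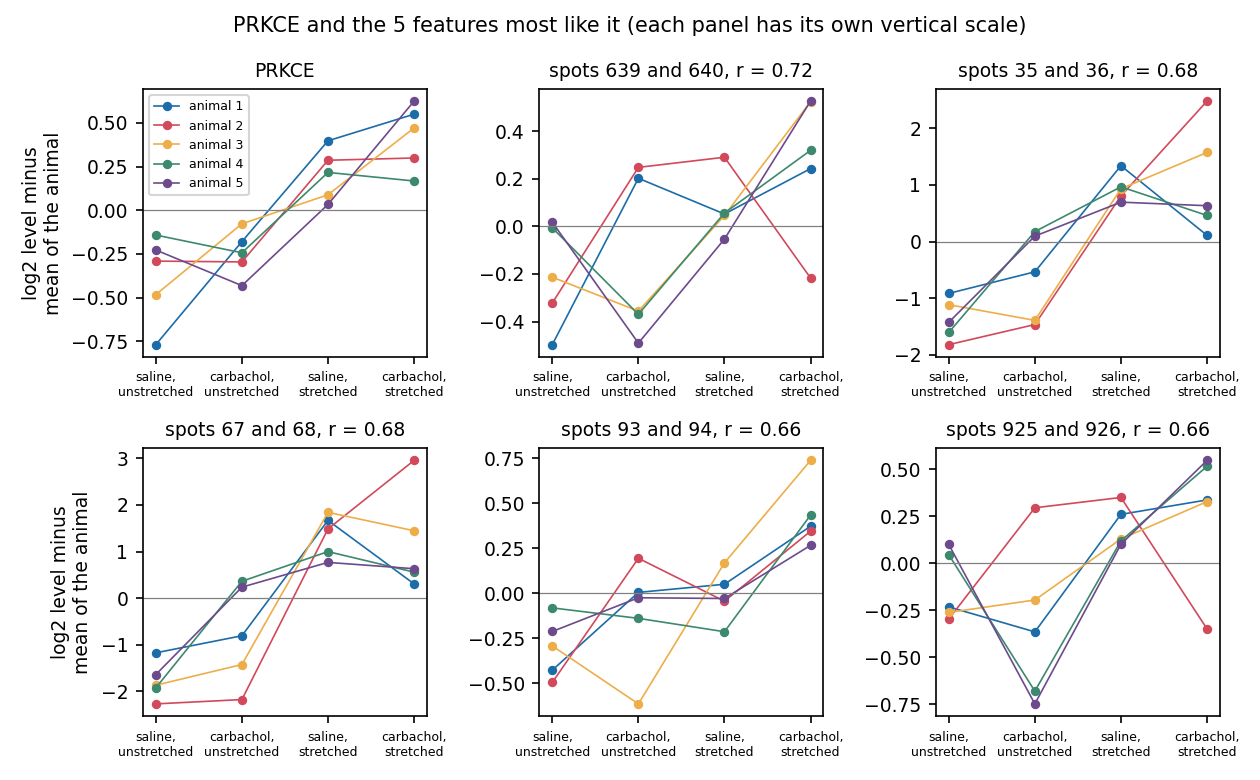
Log2 level minus the mean of the animal (vertical axis, scaled separately in each panel) in the 4 treatment groups (horizontal axis) for PRKCE and the 5 features with the highest correlation to it, 1 line per animal. Spots 35 and 36 and spots 67 and 68 span several log2 units, against less than 2 for PRKCE, and in spots 639 and 640 and 925 and 926 animal 2 departs from the other animals.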

How the data were processed

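The authors deposited the linear intensity of each spot, with a column for every dye channel. Per the labels' protocols, control transcripts were spiked into the RNA, which was amplified and coupled to either dye. The sources used here do not state the scanner, the image software, the background treatment or why cells are blank. Groups, animals, arrays and dyes came from the sample titles. Log2 values were corrected within arrays by loess (span 0.4, 4 iterations), and arrays were centred on the 193 spots measured on all 20. Duplicate spots and then both labellings of an RNA were averaged. Features with at least 3 animals in each group (190 of 520 spot pairs) were fitted with limma 3.58.1 in R 4.3.3, with animal as a block and Benjamini-Hochberg adjustment over all features, threshold 0.05, two-sided. Figures used matplotlib 3.10.9.

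Strips are paired by animal in the design text, where each animal received all treatments. The mean correlation of deviations from group means was 0.508 within an animal (lowest -0.0923) and -0.156 between animals, over 118 features. Such deviations sum to 0 within a group, which pushes values between animals below 0. Most arrays also carried strips of the same animal, so these correlations do not by themselves show the pairing. Named genes were PRKCE, other named genes with enough values, and the 5 features most and 2 least like PRKCE. The gene and lists were chosen with earlier results of these data known. The procedure was tested on simulated data. Labellings of an RNA differed less there than in the real data, so its sensitivity here is not known from them. Alternatives covered block, scaling, dye, spots, pseudocount (50), variance model, array sets and leaving out animals. Leaving out arrays was added after seeing the data, and an RNA of the left-out array was then read from its other labelling alone.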

Additional observations from a re-analysis of the deposited data

Results flagged for a closer look

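Among the 4 sets of per-animal values for carbachol and the interaction, 0 exceeded Dixon's critical value of 0.71 for an outlying animal. The highest value was 0.602, for the interaction, in which animal 5 lay above the others.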

How the results depend on the processing

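The stretch changes of PRKCE and its change with both treatments, 4 comparisons described without a test, kept their sign in all 160 values, from 40 settings for each comparison. The 5 tested PRKCE results had 198 such values, from 38 to 40 settings for each result. They include the interaction and the difference between array sets, which come from the stretch changes on which the gene was chosen. Of the 198 values, 12 reversed the sign of a value that had not passed, and 1 gave a call. No cause was tested for these shifts beyond the construction named below. Without the replicate block the tested values were unchanged, with adjusted p from 0.989 to 1.00 in limma, and 4 features were called for stretch. Leaving out the block changed no call of the tested PRKCE results. The stretch change, described without a test, kept its value with an SE of 0.177 against 0.0993 with the block. Cy3 alone gave a stretch change of 0.84 and 0.99 in carbachol; Cy5 alone gave 0.42 and 0.35, an interaction of -0.14, a carbachol change in stretched strips of -0.027 and 3 features called for stretch. Without centring of arrays the carbachol change in unstretched strips was -0.029. With array effects removed the interaction was -0.23, the carbachol change in unstretched strips 0.24 and the counts 58 for carbachol, 100 for the interaction and 77 for stretch, in a fit whose array terms the test does not count. Animals 1 to 3 alone gave an interaction of -0.15. Animals 4 and 5 alone gave a carbachol change in unstretched strips of -0.15 and counts of 2 for carbachol, 5 for the interaction and 3 for stretch. In these animals the interaction compares different arrays. With 1 animal left out at a time, the stretch change was 0.55 to 0.69, the carbachol change 0.12 to 0.24 and the interaction -0.098 to 0.21. The carbachol change was then 0.024 to 0.22 in unstretched and 0.12 to 0.28 in stretched strips. Leaving out each array gave 0.52 to 0.74 for stretch, 0.068 to 0.29 for carbachol, 0.016 to 0.26 for it in unstretched and 0.089 to 0.35 in stretched strips, 0.59 to 1.02 for both treatments, -0.049 to 0.25 for the interaction, -0.45 to 0.097 for the difference between array sets and 5 to 10 features called for stretch, the 10 without array 7. Signal over background is unknown.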
